A study of Mus musculus with 4 samples.

Results

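Antisense RNA genes are annotated transcription units whose RNA is read from the strand opposite to another gene, most often a protein-coding one. The class was examined here in mouse embryonic stem cells (mESCs) cultured with Go6983, an inhibitor of several protein kinase C isoenzymes, and in the same cells without it. Members were all genes of the deposited expression table whose gene identifier has the type antisense in GENCODE release M21, and 79 of the 1577 listed genes met this rule. Of these 79 genes, 62 were higher and 17 were lower in Go6983-treated cells than in NT cells. For 16 members an overlapping coding gene on the opposite strand was also listed, and in 13 of these pairs both fold changes had the same sign.

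An antisense RNA can start near the start of its coding neighbour and run away from it (head to head), can lie wholly within the coding gene, or can run into its end (tail to tail). Some antisense RNAs act on their neighbour in cis, for instance at imprinted loci or on the X chromosome, while for most of them no function is known and the RNA may only accompany transcription of the locus. Protein kinase C enzymes are serine/threonine kinases activated by lipid messengers, and their inhibition is known to favour maintenance of mESCs.

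The Go6983 group comprised 2 samples of 46C cells exposed to 5 μM Go6983 for 24 h, and the NT group comprised 2 samples of 46C cells kept in control medium. 46C is an established mouse ESC line that carries a green fluorescent protein reporter at the Sox1 gene, so all 4 samples come from 1 line. Total RNA was sequenced, and nothing in the sources says that the samples of a group came from separate cultures, so each p-value below measures only the spread between these samples. The table lists only genes that differ at least 2-fold between the group means (smallest difference 1.00 on the log2 scale), so a high share of calls was fixed by that selection and the directions and sizes below describe a selected list. Whether reads were assigned to genes by strand is not given in the sources used here, and without strand-aware counting the reads of a gene and of its antisense partner cannot be told apart wherever their exons overlap.

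Reads in listed genes numbered 859777 to 1054236 per library, and the total depth is unknown. Of 17 mESC markers, 7 were listed, with 6 higher and Utf1 lower in Go6983-treated cells, and their summed normalized counts were 113926 and 118569 in Go6983-treated cells, against 66965 and 67740 in NT cells. Among markers of other cells, 1 of 9 fibroblast genes was listed (Col1a2, 78.4 and 82.4 normalized counts in Go6983-treated cells, against 31.8 and 40.9 in NT cells), none of 7 primitive endoderm genes was listed, and 2 of 6 neural progenitor genes were listed, Pax6 and Neurod1, with summed normalized counts of 432 and 349 in Go6983-treated cells, against 1538 and 1328 in NT cells. The part of such cells in the antisense values was not tested. Since only genes that differ at least 2-fold are listed, each listed marker had to differ between the groups. Of all listed genes, 68.8% were called higher. A marker that is not listed may still be expressed in both groups.

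Of the 79 members, 74 overlapped at least 1 opposite-strand coding gene in GENCODE M21, and 9 of these overlapped several. AI847159, Snhg7os, Gm11520, Ttc39aos1 and Med9os overlapped none. The 74 members formed 85 pairs with 85 coding genes, of which 35 were head to head, 31 had the antisense gene inside its partner, 15 were tail to tail and 4 had the partner inside the antisense gene. In 69 of the 85 pairs the coding gene was not listed, and its level was not analysed here. The share of a member's exonic bases that lay under exons of coding genes on the other strand had a median of 11.1% and reached 95.0%, at A630072M18Rik under Rsbn1l.

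To show what such an overlap is, 1 stretch of 80 bases is given for 5 of the pairs whose antisense exon runs across the edge of a coding exon of the partner. Each is read 5′ to 3′ along the antisense RNA from the GRCm38 genome, with the 60 bases that lie opposite the partner's coding exon in capitals and the 20 bases beyond its edge in lower case.
Gm14455 over Cass4, chr2:172426616-172426695, minus strand: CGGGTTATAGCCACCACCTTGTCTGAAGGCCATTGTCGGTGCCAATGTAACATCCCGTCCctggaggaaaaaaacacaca
Gm15462 over Lrrc31, chr3:30687395-30687474, plus strand: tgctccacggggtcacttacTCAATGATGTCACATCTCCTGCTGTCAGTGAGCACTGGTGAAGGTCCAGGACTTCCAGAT
Gm15816 over Ank1, chr8:23139436-23139515, minus strand: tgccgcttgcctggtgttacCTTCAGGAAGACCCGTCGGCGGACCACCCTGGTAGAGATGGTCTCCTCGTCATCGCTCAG
Dnah2os over Dnah2, chr11:69453141-69453220, plus strand: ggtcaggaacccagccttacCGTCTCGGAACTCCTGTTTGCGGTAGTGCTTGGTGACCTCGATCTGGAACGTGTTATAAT
Arhgap20os over Arhgap20, chr9:51840496-51840575, minus strand: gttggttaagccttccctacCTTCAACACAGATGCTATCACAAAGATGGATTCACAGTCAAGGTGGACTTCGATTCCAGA
In the last 4 of these stretches the lower-case bases end in ac, the reverse complement of the GT that opens an intron on the partner's strand. In the Gm14455 stretch they open with ct, the reverse complement of the AG that closes one. The antisense exons thus continue across the splice sites of the coding gene, and the capitals are the bases where a read without strand information fits both genes.

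For 3 members with a listed partner, the antisense gene itself had 0 reads in both libraries of a group. Their promoter windows across the RefSeq start (GRCm38.p6) are printed whole, with each CG dinucleotide in capitals.
Arhgap20os, chr9:51875836-51876135, minus strand: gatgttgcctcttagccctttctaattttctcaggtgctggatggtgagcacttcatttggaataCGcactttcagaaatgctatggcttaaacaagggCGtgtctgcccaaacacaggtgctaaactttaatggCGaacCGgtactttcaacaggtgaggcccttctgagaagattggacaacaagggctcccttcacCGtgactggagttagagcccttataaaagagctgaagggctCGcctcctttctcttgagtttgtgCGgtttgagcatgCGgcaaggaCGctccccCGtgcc
Slc36a3os, chr11:55136749-55137048, plus strand: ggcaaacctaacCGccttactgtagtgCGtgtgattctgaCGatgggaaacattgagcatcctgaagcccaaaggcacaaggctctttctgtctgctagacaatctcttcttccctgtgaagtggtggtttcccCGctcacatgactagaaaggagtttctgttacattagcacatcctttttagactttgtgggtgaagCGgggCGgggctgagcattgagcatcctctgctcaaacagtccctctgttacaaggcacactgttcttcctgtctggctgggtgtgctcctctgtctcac
Bach2os, chr4:32571613-32571912, minus strand: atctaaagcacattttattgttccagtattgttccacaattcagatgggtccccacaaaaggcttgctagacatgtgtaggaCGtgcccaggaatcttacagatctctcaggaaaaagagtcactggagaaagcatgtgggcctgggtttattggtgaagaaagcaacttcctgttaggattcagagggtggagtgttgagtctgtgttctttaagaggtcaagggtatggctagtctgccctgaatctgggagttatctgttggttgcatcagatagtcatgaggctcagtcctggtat
The Arhgap20os promoter held 10 CG dinucleotides and 1 TATAAA, at position 221 counted from the first base printed. The promoter of Slc36a3os held 6 CG dinucleotides and that of Bach2os held 1, and neither held TATAAA on either strand. A RefSeq promoter was matched for 43 of the 79 members, with a median of 13 CG dinucleotides, against 7 over all 27025 promoters. TATAAA was found on either strand in 4.65% of the members' promoters (2 of 43) and in 14.16% of all promoters (3827 of 27025). These matches describe the letters of the window only.

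In limma with Benjamini-Hochberg adjustment over all 1577 genes, 60 members were called higher and 14 lower in Go6983-treated cells at an adjusted p below 0.05. Among all listed genes, 68.8% were called higher and 29.7% lower, against 75.9% and 17.7% of the members. Both Go6983 samples exceeded both NT samples for 62 members and fell below both for the other 17, and this was so for 69.6% and 30.1% of all listed genes. The members' log2 fold changes ran between -3.41 and 3.85 with a median of 1.55, against a median of 1.21 over all listed genes, 1.20 over the 1201 protein-coding genes and 1.28 over the 108 lincRNA genes. Since no listed gene differs by less than 1.00 on the log2 scale, these medians of signed values also reflect the share of higher genes. Setting genes with 0 reads in one group to their bound could not move the 2 medians of 1.55 and 1.21. The smallest bound, 5.21-fold, is already beyond both. The 5 members without a call were AI847159, Gm26793 and 1700019L13Rik, lower in Go6983-treated cells, and 6330410L21Rik and Gm16845, higher in them. The calls depended on single libraries: fewer members were called higher and fewer lower in each fit with 1 library left out. These fits hold fewer samples, and the calls over all listed genes in them are not given here. Whether the antisense members lost more calls than other listed genes was not tested.

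**Figure D1:**
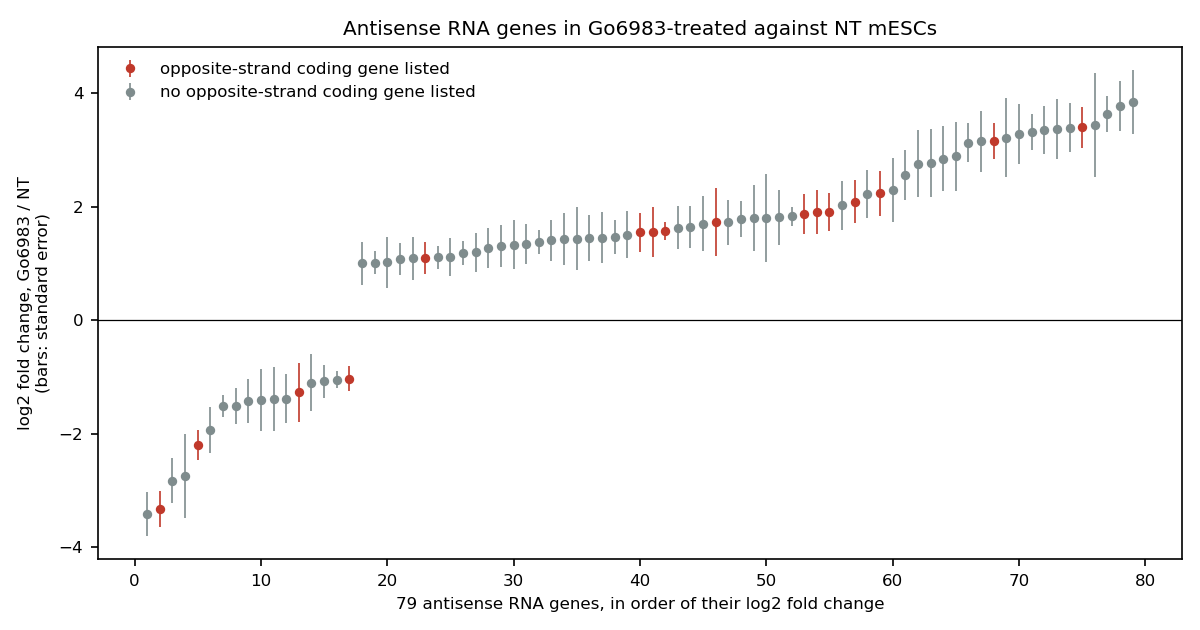
The vertical axis gives the log2 fold change of each of the 79 antisense RNA genes (Go6983 over NT, 2 samples each, bars are limma standard errors), and the horizontal axis their order. The 62 higher members and 17 lower members are separated by the 2-fold selection of the table, and the 16 members with a listed opposite-strand coding gene (red) are spread over both sides.

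Most members were lowly counted. Reads summed over the 4 libraries ran between 16 and 1930 with a median of 100, against a median of 261 over all listed genes. The 31 members whose higher group averaged 50 normalized counts or more comprised 20 higher and 11 lower genes, with a median log2 fold change of 1.10 and a median standard error of 0.32. The 48 members below that level comprised 42 higher and 6 lower genes, with a median of 1.97 and a median standard error of 0.43. Thus 64.5% of the better counted members and 87.5% of the others were higher, against 69.7% of all listed genes. The mean of the higher group had a median of 94.7 over all listed genes, against 20.6 over the 48 members. The share higher among lowly counted listed genes of other types was not examined. Of the 22 members with no exonic base under a coding exon, 18 were higher and 4 lower (median 1.95), and of the 57 with some such bases, 44 were higher and 13 lower (median 1.45). The medians here are over signed values of a list without small changes. They therefore reflect the share of higher genes as well as the size of the changes.

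Head-to-head pairs shared the start of the coding gene. In all 5 with a listed partner both fold changes had the same sign, with both genes called in 4 of them. Of all listed genes, 68.8% were called higher and 29.7% lower. Tbx3os1 starts inside Tbx3, a T-box transcription factor that supports mESC self-renewal, and runs away from it on chromosome 5 (119570130 to 119671365, minus strand, GRCm38). It had 653 and 802 normalized counts in Go6983-treated cells, against 226 and 261 in NT cells, the largest read number of any member. Tbx3 had 20326 and 21039 normalized counts in Go6983-treated cells, against 9284 and 9599 in NT cells. The groups did not overlap for either gene, and the log2 fold changes were 1.57 (SE 0.16, adjusted p = 0.000491) for Tbx3os1 and 1.13 (SE 0.09, adjusted p = 0.000428) for Tbx3. Counted per kilobase of exon, Tbx3os1 stood at 6.71% and 7.97% of Tbx3 in Go6983-treated cells, against 5.09% and 5.68% in NT cells.

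Gm16136 and Grhl2, a grainyhead-like transcription factor of epithelial genes, start 273 bases apart on chromosome 15 and were both lower in Go6983-treated cells. Gm16136 had 39.2 and 42.8 normalized counts in Go6983-treated cells, against 235 and 156 in NT cells (log2 fold change -2.20, SE 0.27, adjusted p = 0.000915). Grhl2 had 1398 and 1156 normalized counts in Go6983-treated cells, against 4854 and 4091 in NT cells (log2 fold change -1.81, SE 0.14). Both genes were separated between the groups, and both were called with any 1 library left out.

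Gm26793 and Fgf15, the mouse hormone-like fibroblast growth factor that corresponds to human FGF19, start 930 bases apart on chromosome 7. Fgf15 fell, with 724 and 556 normalized counts in Go6983-treated cells, against 2598 and 2627 in NT cells (log2 fold change -2.04, SE 0.15, adjusted p = 0.000415). Gm26793 had 44.8 and 16.1 normalized counts in Go6983-treated cells, against 77.6 and 57.2 in NT cells, and its log2 fold change of -1.27 (SE 0.52) did not pass (adjusted p = 0.0544). Its Go6983 samples differed more from each other than its NT samples did, and leaving out Go6983 replicate 1 gave -1.99, whereas leaving out Go6983 replicate 2 gave -0.56. Its call depended on the setting: the adjusted p was 0.0390 with a pseudocount of 5, 0.0447 and 0.0364 among genes averaging 10 or 50 and more, 0.0379 after scaling to the listed total and 0.0482 in limma-voom, against 0.0732 with a pseudocount of 0.1 and 0.0826 without trend.

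The other head-to-head pairs rose at lower counts. Gm10561 had 19.6 and 24.6 normalized counts in Go6983-treated cells, against 4.97 and 9.20 in NT cells (log2 fold change 1.56, SE 0.44). Its partner Rftn2, a raftlin family gene, had 65.3 and 91.0 in Go6983-treated cells, against 27.8 and 16.3 in NT cells (log2 fold change 1.80, SE 0.38). Gm12473 starts 9598 bases inside its partner, though 249 bases from the nearest start of an annotated transcript of that gene. It had 16.8 and 18.2 in Go6983-treated cells, against 4.97 and 3.07 in NT cells, the last from 3 reads (log2 fold change 1.91, SE 0.40). Its partner Npr2, the receptor guanylyl cyclase for C-type natriuretic peptide, had 288 and 285 in Go6983-treated cells, against 127 and 146 in NT cells (log2 fold change 1.07, SE 0.16). All 4 genes were separated between groups, but without Go6983 replicate 1 the adjusted p was 0.0870 for Gm10561 and 0.0854 for Rftn2. Without Go6983 replicate 2 it was 0.112 for Gm10561, 0.122 for Rftn2 and 0.0518 for Gm12473, and without NT replicate 1 it was 0.0672 for Gm10561.

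**Figure D2:**
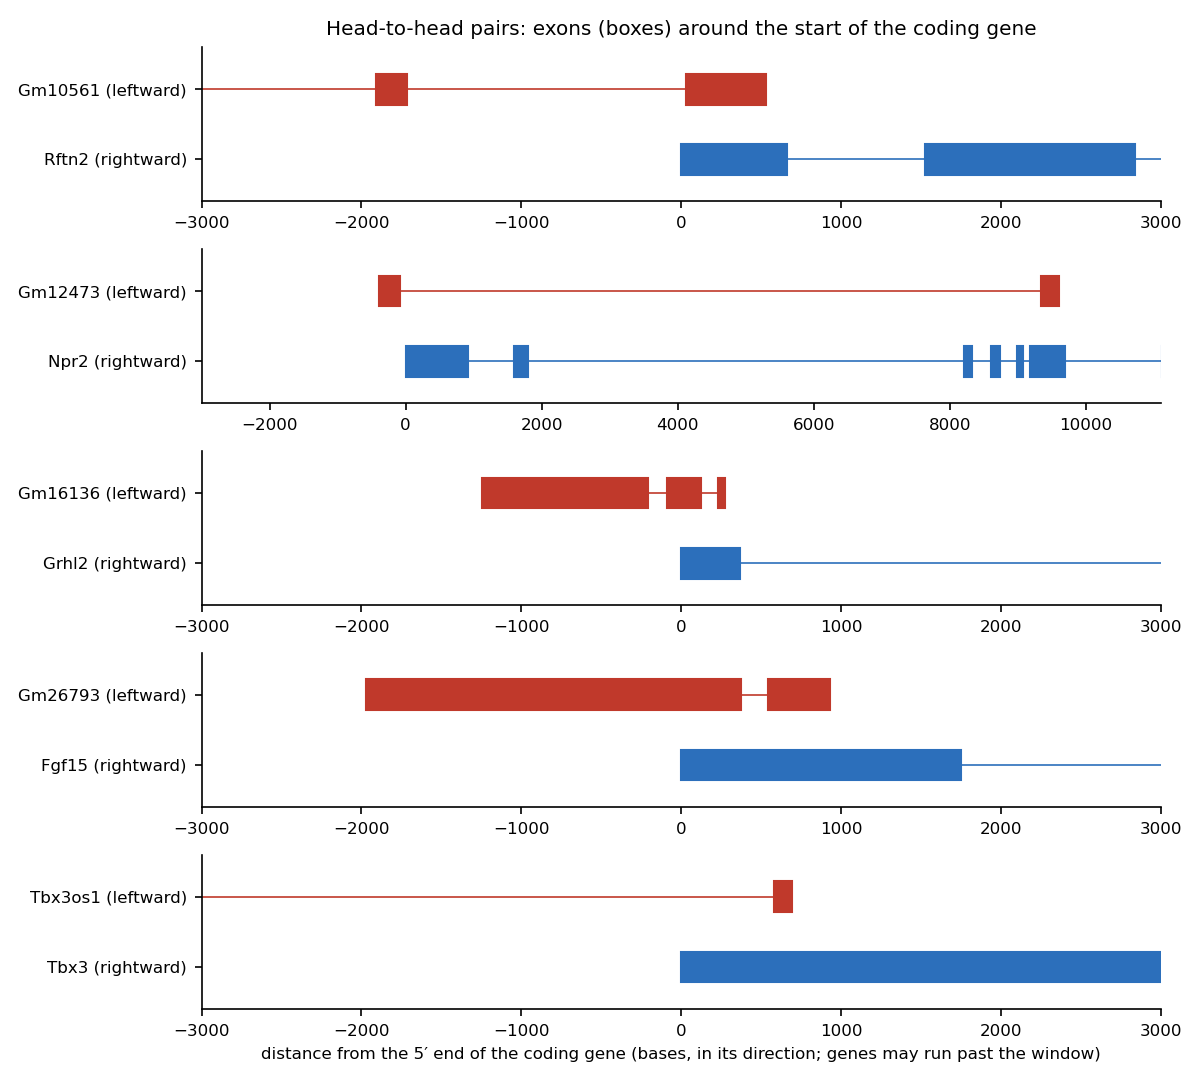
Exons of the 5 head-to-head pairs are drawn to scale as boxes within a window around the start of the coding gene. The antisense gene is above (red, transcribed leftward) and its coding partner below (blue, transcribed rightward). The horizontal axis is the distance in bases from the 5′ end of the coding gene. Exons outside the window are not shown, among them most of those of Tbx3os1. The antisense exons cover between 115 bases (Tbx3os1) and 761 bases (Gm26793) of their partner's exons.

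Of the 8 members that lie inside a listed partner, 7 moved in the same direction as the partner, all of them higher and called. With 68.8% of all listed genes called higher, many pairs would share a direction whatever their arrangement. Slc36a3os, an antisense RNA within a gene of the proton-coupled amino acid transporter family, had 12.1 and 7.49 normalized counts in Go6983-treated cells, against 0 and 0 in NT cells. Slc36a3 itself had 10.3 and 9.63 in Go6983-treated cells, against 0 and 0 in NT cells. Both were thus detected in each Go6983 library and in neither NT library, from 20 reads each, and against a floor of 3 reads over the NT group Slc36a3os was at least 6.49-fold higher. The exons of these genes share no base. Gm48239 and Cadps, a priming factor of dense-core vesicles, also share no exonic base: Gm48239 had 14.9 and 12.8 in Go6983-treated cells, against 1.99 and 3.07 in NT cells (2 and 3 reads, log2 fold change 2.09, SE 0.38), and Cadps had 248 and 246 in Go6983-treated cells, against 100.4 and 94.0 in NT cells (log2 fold change 1.34, SE 0.16).

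Bach2os had 8.40 and 7.49 normalized counts in Go6983-treated cells, against 0 and 0 in NT cells, at least 5.26-fold higher against 3 reads over the NT group. Bach2, a transcriptional repressor best known from lymphocytes, had 335 and 420 in Go6983-treated cells, against 160 and 49.0 in NT cells (log2 fold change 2.07, SE 0.53). The NT samples of Bach2 lay far apart, and its log2 fold change was 1.22 without NT replicate 2, while without Go6983 replicate 1 or 2 the adjusted p was 0.151 and 0.190. Gm15462 had 114 and 134 in Go6983-treated cells, against 41.8 and 24.5 in NT cells (log2 fold change 1.91, SE 0.33). Its partner Lrrc31, which encodes a leucine-rich repeat protein, had 754 and 916 in Go6983-treated cells, against 129 and 135 in NT cells (log2 fold change 2.65, SE 0.15). Per kilobase of exon, Gm15462 stood at 18.2% and 17.6% of Lrrc31 in Go6983-treated cells, against 39.0% and 22.0% in NT cells, so the coding gene rose more. For Gm15462 the adjusted p was 0.0793 when Go6983 replicate 1 was left out and 0.0954 when Go6983 replicate 2 was.

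The remaining inside pairs that rose were Gm15816 in Ank1, Dnah2os in Dnah2 and Gm15894 in Il34. Gm15816 had 82.1 and 107 normalized counts in Go6983-treated cells, against 31.8 and 19.4 in NT cells (log2 fold change 1.87, SE 0.35). Ank1, the ankyrin of the red cell membrane skeleton, had 82.1 and 87.8 in Go6983-treated cells, against 12.9 and 25.5 in NT cells (log2 fold change 2.16, SE 0.40). Per kilobase of exon the antisense gene was the higher of this pair in all 4 samples, at 801% and 977% of Ank1 in Go6983-treated cells, against 1973% and 609% in NT cells. Dnah2os had 62.5 and 68.5 in Go6983-treated cells, against 26.9 and 17.4 in NT cells (log2 fold change 1.55, SE 0.34), and Dnah2, an axonemal dynein heavy chain, had 609 and 514 in Go6983-treated cells, against 262 and 282 in NT cells (log2 fold change 1.04, SE 0.14). Gm15894 had 64.4 and 56.7 in Go6983-treated cells, against 26.9 and 28.6 in NT cells (log2 fold change 1.10, SE 0.29), and Il34, a ligand of the colony-stimulating factor 1 receptor, had 107 and 88.8 in Go6983-treated cells, against 31.8 and 57.2 in NT cells (log2 fold change 1.17, SE 0.35). Each of these genes was separated between the groups and each was called, but apart from Dnah2 none was called without Go6983 replicate 1 (adjusted p between 0.0784 and 0.202) or without Go6983 replicate 2 (between 0.101 and 0.148). Gm15894 also lost its call when NT replicate 1 (0.0608) or NT replicate 2 (0.0535) was left out, and Il34 without NT replicate 1 (0.0751, log2 fold change 0.76).

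In 3 pairs the antisense gene and its partner moved in opposite directions. Gm14455 runs tail to tail into Cass4, a scaffold protein of the Cas family, with 1130 of its 2146 exonic bases under coding exons. Gm14455 had 13.1 and 18.2 normalized counts in Go6983-treated cells, against 1.99 and 3.07 in NT cells (2 and 3 reads, log2 fold change 2.24, SE 0.40). Cass4 had 66.3 and 69.6 in Go6983-treated cells, against 294 and 219 in NT cells (log2 fold change -1.89, SE 0.21). Per kilobase of exon, Gm14455 stood at 49.1% and 65.1% of Cass4 in Go6983-treated cells, against 1.68% and 3.49% in NT cells. On the log2(normalized count + 1) scale, the difference antisense minus partner shifted by 4.12. That was the largest shift among pairs detected in all 4 libraries.

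Arhgap20os, tail to tail with Arhgap20, had 0 and 0 normalized counts in Go6983-treated cells, against 8.95 and 9.20 in NT cells (9 reads each), at least 6.06-fold lower against 3 reads over the Go6983 group. Arhgap20 had 97.1 and 97.4 in Go6983-treated cells, against 42.8 and 50.1 in NT cells (log2 fold change 1.06, SE 0.24), and its adjusted p was 0.0909 and 0.0937 without Go6983 replicate 1 or 2. Gm26954 lies inside Pclo, which encodes the presynaptic scaffold Piccolo. It fell, with 56.0 and 65.3 in Go6983-treated cells, against 119 and 131 in NT cells (log2 fold change -1.03, SE 0.22), whereas Pclo had 276 and 311 in Go6983-treated cells, against 129 and 99.1 in NT cells (log2 fold change 1.37, SE 0.19). Without Go6983 replicate 1 or 2 the adjusted p of Gm26954 was 0.0605 and 0.0509, and that of Pclo was 0.0586 without Go6983 replicate 2. The groups of all these genes were separated, and the tail-to-tail and inside arrangements each held both same-direction and opposite pairs.

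The third tail-to-tail pair rose together. Gm16090 had 63.5 and 57.8 normalized counts in Go6983-treated cells, against 32.8 and 9.20 in NT cells (log2 fold change 1.73, SE 0.60, adjusted p = 0.0321). Dsg2, a desmosomal cadherin, had 6496 and 6992 in Go6983-treated cells, against 2661 and 2572 in NT cells (log2 fold change 1.36, SE 0.09). Leaving out NT replicate 1 gave a log2 fold change of 2.59 for Gm16090, whereas leaving out NT replicate 2 gave 0.86 (adjusted p = 0.0773), and its adjusted p was 0.251 and 0.229 without Go6983 replicate 1 or 2. Its call was also lost in limma without trend (adjusted p = 0.0546).

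**Figure D3:**
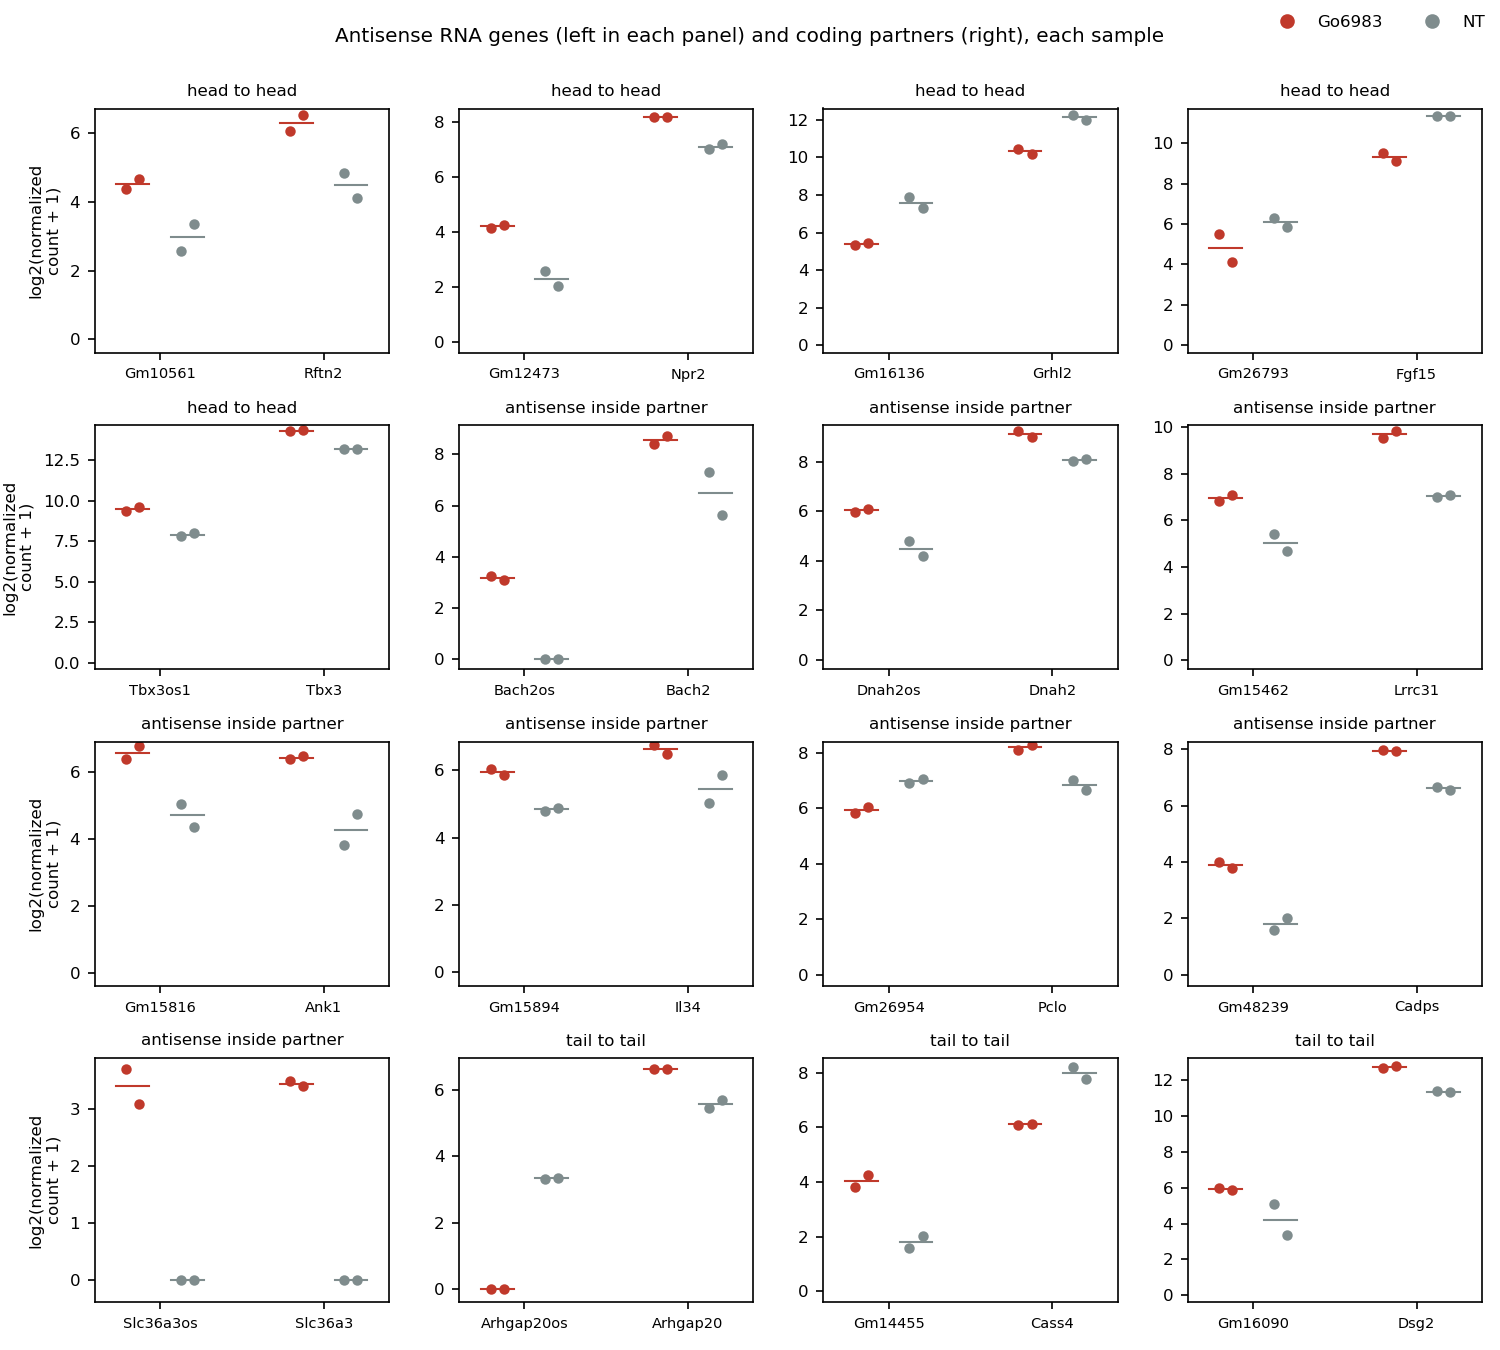
Each panel shows 1 of the 16 pairs, with the antisense gene at the left and its coding partner at the right, Go6983 samples in red left of NT samples in grey, points for samples and lines for group means, on log2(normalized count + 1). In 13 panels both genes shift the same way, and Gm26954/Pclo, Arhgap20os/Arhgap20 and Gm14455/Cass4 shift in opposite ways.

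Across the 16 pairs, 13 had fold changes of the same sign, 11 with both genes higher and 2 with both lower, and among the 15 pairs with both genes called it was 12. Since 69.7% of all listed genes were higher, many pairs of listed genes would share a direction whatever their position, and the genes of a pair are not independent, so no test was made of this count. The partners comprised 13 genes called higher and 3 called lower, and fewer were called higher in the smaller fits without Go6983 replicate 1 or 2. The count of 13 of 16 could not change with a library left out, since the groups were separated for every gene of these pairs. It was 11 of 14 in pairs that share exonic bases and 2 of 2 in pairs that share none. Per kilobase of exon the antisense gene was below its partner in all 4 samples in 10 pairs and above it in all 4 in 3 pairs, Gm15816, Dnah2os and Gm26954.

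**Figure D4:**
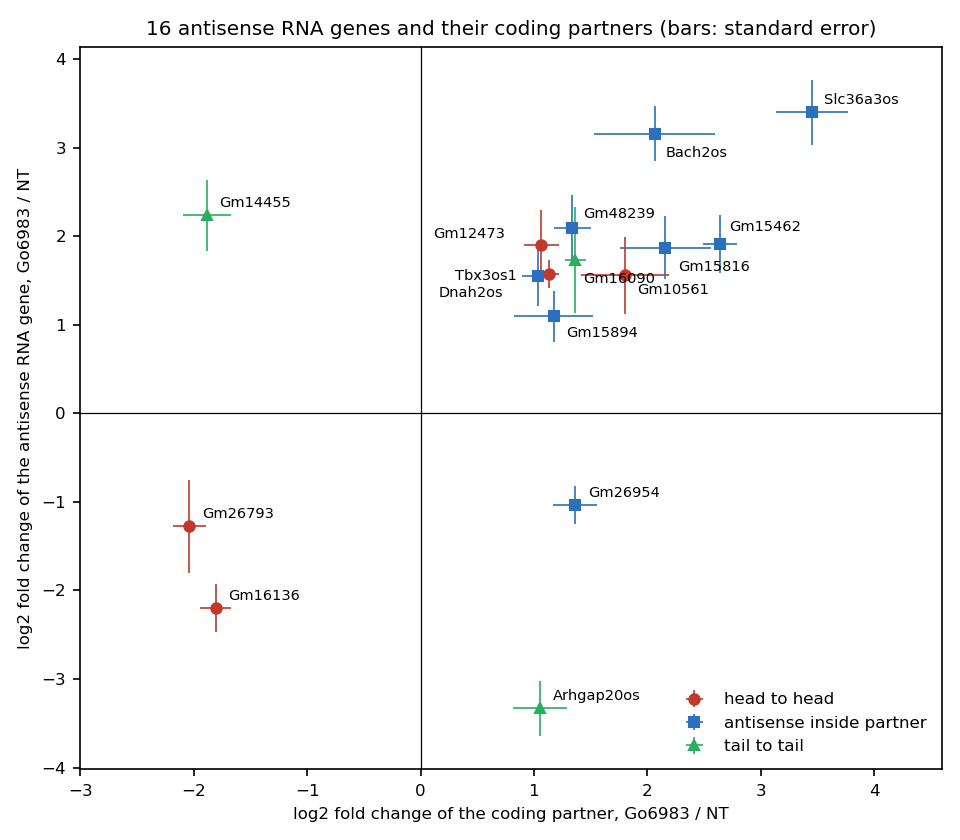
The log2 fold change of each antisense RNA gene (vertical axis) is plotted against that of its coding partner (horizontal axis), both Go6983 over NT with limma standard errors as bars, and symbols give the arrangement of the pair. Of the 16 points, 11 lie in the upper right field, 2 in the lower left and 3 in the other fields.

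As a measure of how far shared exons could touch these values, the partner's average level per base was multiplied by the number of shared exonic bases, a calculation added after the values had been seen. For Tbx3os1 the 115 shared bases corresponded to 353 and 365 normalized counts in Go6983-treated cells, against 161 and 167 in NT cells, below its own counts in every sample. For Gm15462 the 648 shared bases corresponded to 88.4 and 107 in Go6983-treated cells, against 15.1 and 15.8 in NT cells. Its own counts were 114 and 134, against 41.8 and 24.5, so the product was below them but was itself higher in Go6983-treated cells. A count above the product in each sample does not place the change outside the shared bases, which was not tested. For Gm15816, Dnah2os, Gm15894, Gm26954, Gm10561 and Gm16136 the product was also below the antisense count in all 4 samples. For Gm26793 the 761 shared bases corresponded to 180.3 and 138 in Go6983-treated cells, against 646 and 654 in NT cells, above its own counts in every sample, and the same held for Bach2os and Gm16090. For Gm14455 the 1130 shared bases corresponded to 14.0 and 14.7 in Go6983-treated cells, against 62.3 and 46.3 in NT cells, where its own counts were 1.99 and 3.07. Of the 14 pairs with shared bases, 8 thus had antisense counts above this product in all samples, 3 below it in all samples and 3 a mixture. The product takes the partner's reads as evenly spread over the exons of all its isoforms, and how shared reads were assigned was not tested.

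Of all listed genes, 68.8% were called higher and 29.7% lower. Members without a listed overlapping partner numbered 63, of which 48 (76.2%) were called higher and 11 (17.5%) lower. The 6 largest falls among those whose higher group averaged 50 or more were Gm10501, A630072M18Rik, 6330418K02Rik, 4930526L06Rik, Dgkeos and D030025P21Rik. Gm10501, opposite the Hsp70 family gene Hspa1l with 80.8% of its exonic bases under coding exons, had 11.2 and 6.42 normalized counts in Go6983-treated cells, against 69.6 and 64.4 in NT cells (log2 fold change -2.84, SE 0.40, adjusted p = 0.00145). A630072M18Rik, which lies almost wholly opposite Rsbn1l exons, had 59.7 and 11.8 in Go6983-treated cells, against 143 and 242 in NT cells (log2 fold change -2.75, SE 0.74). Its samples were spread in both groups, with a log2 fold change of -1.62 without Go6983 replicate 2 (adjusted p = 0.0885) and adjusted p-values of 0.0993 and 0.162 without NT replicate 1 or 2. 4930526L06Rik, which runs over the membrane protein genes Ms4a1, Ms4a5 and Ms4a12 and shares no exonic base with them, had 71.9 and 92.1 in Go6983-treated cells, against 237 and 233 in NT cells (log2 fold change -1.52, SE 0.20).

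6330418K02Rik had 28.0 and 15.0 normalized counts in Go6983-treated cells, against 70.6 and 94.0 in NT cells (log2 fold change -1.94, SE 0.40), opposite Gal3st4 and Gm43720. Dgkeos, opposite the diacylglycerol kinase gene Dgke, had 78.4 and 47.1 in Go6983-treated cells, against 202 and 152 in NT cells (log2 fold change -1.51, SE 0.31). D030025P21Rik, opposite the extracellular matrix gene Ltbp2, had 63.5 and 32.1 in Go6983-treated cells, against 196 and 74.6 in NT cells (log2 fold change -1.40, SE 0.55, adjusted p = 0.0464). All 3 were separated between the groups, and all 3 lost their call in some sets of 3 libraries. For 6330418K02Rik the adjusted p was 0.0760 without Go6983 replicate 2, 0.0504 without NT replicate 1 and 0.0730 with NT replicate 2 left out, and for Dgkeos it was 0.0724 without Go6983 replicate 2 and 0.0748 without NT replicate 1. For D030025P21Rik it was between 0.0518 and 0.368 whichever library was left out, with a log2 fold change of -0.71 without NT replicate 1 and -0.92 without Go6983 replicate 2. It was not called with a pseudocount of 0.1 (0.0660), in limma-voom (0.0694) or in limma without trend (0.0863) either.

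The 6 largest rises under the same rule were E130307A14Rik, Gm16845, Gm15777, Gm47071, C230037L18Rik and Sap30bpos. E130307A14Rik, opposite Traf3ip2, the adaptor of the interleukin-17 receptor, had 269 and 287 normalized counts in Go6983-treated cells, against 77.6 and 76.6 in NT cells (log2 fold change 1.84, SE 0.16, adjusted p = 0.000446). Its replicates differed little, and 4.10% of its exonic bases lay under coding exons. C230037L18Rik, opposite the lysosomal sulfatase gene Arsa, had 244 and 193 in Go6983-treated cells, against 75.6 and 89.9 in NT cells (log2 fold change 1.38, SE 0.21). Gm16845 had 18.7 and 96.3 in Go6983-treated cells, against 9.95 and 13.3 in NT cells, and its log2 fold change of 1.81 (SE 0.77) was not called (adjusted p = 0.0616). Here Go6983 replicate 2 alone was high, and without it the log2 fold change was 0.65, whereas without Go6983 replicate 1 it was 2.96 (adjusted p = 0.0391). It also passed with a pseudocount of 5 (0.0472) and among genes averaging 50 and more (0.0414).

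Gm15777, opposite the coenzyme Q synthesis gene Coq2, had 93.4 and 94.2 normalized counts in Go6983-treated cells, against 32.8 and 21.5 in NT cells (log2 fold change 1.78, SE 0.32). Gm47071, which overlaps the start of Pitx1, a homeodomain transcription factor gene, and at its other end the histone variant gene H2afy, had 115 and 101 in Go6983-treated cells, against 47.7 and 30.7 in NT cells (log2 fold change 1.47, SE 0.30). Sap30bpos, opposite Sap30bp, had 61.6 and 76.0 in Go6983-treated cells, against 33.8 and 20.4 in NT cells (log2 fold change 1.35, SE 0.36). The groups were separated for all 3, and none was called without Go6983 replicate 1 (adjusted p between 0.0848 and 0.118) or without Go6983 replicate 2 (between 0.0869 and 0.166). Sap30bpos was also lost without NT replicate 2 (0.0683).

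In 4 cases a listed coding gene on the opposite strand lay within 5000 bases of a member without overlap, and 3 of these moved with the member. Nkx6-3, a homeodomain transcription factor gene whose start lies 3684 bases from that of Gm15816, had 575 and 577 normalized counts in Go6983-treated cells, against 227 and 213 in NT cells (log2 fold change 1.39, SE 0.12). Hpse, the heparan sulfate-cleaving heparanase, near Gm15777, had 90.6 and 62.1 in Go6983-treated cells, against 12.9 and 21.5 in NT cells (log2 fold change 2.10, SE 0.40). Ms4a14, near 4930526L06Rik, had 222 and 192 in Go6983-treated cells, against 554 and 481 in NT cells (log2 fold change -1.32, SE 0.15). Spred3, an inhibitor of Ras signalling, went the other way from its neighbour: it had 746 and 808 in Go6983-treated cells, against 1735 and 1543 in NT cells (log2 fold change -1.07, SE 0.11), whereas 1110035H17Rik had 41.1 and 50.3 in Go6983-treated cells, against 11.9 and 21.5 in NT cells (log2 fold change 1.45, SE 0.41). None of these neighbours shares a base with its antisense gene. Hpse was not called without Go6983 replicate 1 (adjusted p = 0.0940) or 2 (0.0714), and 1110035H17Rik was not called without Go6983 replicate 1 (0.123), Go6983 replicate 2 (0.161) or NT replicate 1 (0.0809).

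Members with 0 reads in a whole group were a larger share than among all listed genes. Both NT samples had 0 reads for 11 of the 79 members (13.9%), against 5.26% of all listed genes and 14.8% of the lincRNA genes. These 11 members had between 4.28 and 23.5 normalized counts in the Go6983 samples, from 16 to 30 reads in all, and were at least 5.21-fold to 10.3-fold higher against 3 reads over the NT group. The highest of them, B230322F03Rik, named after its values were seen, had 7.47 and 23.5 in Go6983-treated cells, against 0 and 0 in NT cells, with 59.8% of its exonic bases under exons of Nudt19. In the other direction, Arhgap20os and Gm45875 had 0 reads in both Go6983 samples, and Gm45875, opposite the potassium channel gene Kcnk1, had 0 and 0 in Go6983-treated cells, against 12.9 and 7.15 in NT cells, at least 6.71-fold lower. At these read numbers the size of a change is set by few reads, and 0 reads do not show that a transcript is absent.

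Some noncoding RNAs with an established name were among the listed genes. Of a list of 40 such RNAs, most of them antisense and including Airn, Kcnq1ot1, Tsix and Nespas, 3 were listed. All 3 were called higher in Go6983-treated cells, against 68.8% of all listed genes. The list was drawn up with earlier results of these data known, so its hits only describe these genes. For comparison, 79 of the 2959 antisense genes of GENCODE M21 were listed, a class that does not hold all RNAs of that list. Slc36a3os has the type antisense in GENCODE M21, whereas Foxl2os and Hoxa11os have the type processed_transcript and are not among the 79 members. The other 37 were not analysed here.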

How the data were processed

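Expression was taken from the deposited table of listed genes, whose values the authors gave as log2(normalized count + 1) for each sample. Undoing the log2 step gave whole multiples of 1 step per sample (100% of the 1335 to 1375 lower values of a sample, within 0.05), so normalized counts here are reads divided by 1 factor per sample (0.934 to 1.07). Bowtie 0.12.2 and mm9 are named in the submitters' processing notes. For the counter, its strand setting, the annotation and the normalization tool, no name is given in the sources used here. The columns with fold changes and p-values of the authors' own comparison in the table were not used.

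Gene types, exons and overlaps (at least 1 base) came from GENCODE M21 on GRCm38, matched by gene ID for 1572 of the 1577 genes, and promoters from RefSeq. Fold changes are log2 differences of group means on the log2(normalized count + 1) scale, which understates changes of low genes. They were tested with limma 3.58.1 (R 4.3.3, empirical Bayes with trend) over all 1577 genes, with Benjamini-Hochberg adjustment, and called at an adjusted p below 0.05. In fits without 1 library, the lone sample is assumed to vary like the other group. Genes named are the members with a listed overlapping partner. Named too are the 6 largest rises and 6 largest falls among the others with a mean of at least 50. So are members of a list of named noncoding RNAs, most of them antisense. Outside this rule, listed neighbours within 5000 bases, members without a call or without an overlap, and members with 0 reads in a group were named after their values were seen. Members and lists were chosen with earlier results of these data known. Alternatives were other pseudocounts (0.1 and 5), level filters, a 4-fold limit, scaling to the listed total, limma without trend, limma-voom on the recovered reads, a replicate block and each library left out. The floor of 3 reads covers counting error only.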

Additional observations from a re-analysis of the deposited data

How the results depend on the processing

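The 60 higher and 14 lower antisense genes became 20 higher and 11 lower when only means of 50 or more were kept, and 24 higher and 5 lower with a 4-fold limit. The 13 higher and 3 lower partners became 4 and 1 with that limit. Both filters lower a count by construction. With 1 library left out, the higher antisense genes numbered 18 to 48, the lower ones 5 to 11 and the higher partners 7 to 13, fits with fewer samples. With a replicate block, 61 antisense genes were called higher and 15 lower, and the partners stayed at 13 and 3. The block gave a call to Gm26793 (adjusted p = 0.0294) and Gm16845 (0.0388). The same-numbered samples deviated with a correlation of 0.045 over 1044 genes, so the numbers were not taken as pairs. Scaling to the listed total moved the median log2 fold change of all genes by -0.131 and gave 57 higher and 17 lower. Same-direction pairs were 13 of 16, 8 of 9 with both means at least 50, 12 of 15 with both genes called and 16 of 20 with neighbours within 5000 bases. Of the 28 members named by rule and the 16 partners, none changed sign: 452 of their values under the alternatives kept their side of the threshold, 54 lost the call and 10 gained it. A sign could not change with 1 library left out, since the groups of all these genes were separated. Only 2 samples a group, a table already selected for a 2-fold difference, unknown total depth and low read numbers limit every value, and most of all the 48 members below a mean of 50.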
